A study of Mus musculus with 8 samples.

Results

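The genes described here are 10 markers of smooth muscle cells and pericytes, measured in whole mouse skin by 12 probes of a one-colour oligonucleotide array. They are Acta2, Myh11, Tagln, Cnn1, Lmod1, Mylk, Synpo2, Rgs5, Pdgfrb and Cspg4. Members were found by matching the RefSeq accession of each probe to these symbols, and they are 10 of 20284 genes and 12 of 26762 probes that could be named. Synpo2 has 3 probes and each other gene has 1. Total RNA from 4 skins that the labels call Control and 4 that they call DTG was hybridised, and overexpression of Musashi1 is in the title of the series. Msi1 encodes this RNA-binding protein. The labels do not spell out DTG and give all 8 samples as male, and strain, age, transgene promoter and the number of animals are not given in the sources used here. The spread behind each p-value is therefore that of these samples, and part of it may be technical. The comparison of DTG with Control asks how transcripts of these cells differ between skin overexpressing Musashi1 and control skin.

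Smooth muscle of the skin forms the arrector pili muscles of hair follicles and the walls of arteries and veins, and pericytes wrap the capillaries. Smooth muscle contracts when calcium, bound to calmodulin, activates myosin light chain kinase, which lets smooth muscle myosin pull on filaments of smooth muscle actin. Many genes of this machinery are activated by serum response factor, which binds CArG boxes near their promoters, and by its coactivator myocardin. Pericytes carry the receptor PDGFRβ, through which PDGF-B from endothelial cells recruits them to vessels. In whole skin some of these transcripts come from other cells too, such as the dermal sheath around the hair follicle, myofibroblasts and, for Cspg4 and Pdgfrb, other mesenchymal cells. In such bulk samples fewer cells of a type and less RNA per cell cannot be told apart.

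The Acta2 promoter is shown because it was the only 1 of 7 member promoters read here with letters close to a CArG box. RefSeq promoters, assembly GRCm38.p6, were matched by symbol for these 7 of the 10 members, and not for Myh11, Tagln and Pdgfrb. The 250 bases before the start of Acta2, on the minus strand at chr19:34255374-34255623, read as follows, with the matches in capitals.
Acta2: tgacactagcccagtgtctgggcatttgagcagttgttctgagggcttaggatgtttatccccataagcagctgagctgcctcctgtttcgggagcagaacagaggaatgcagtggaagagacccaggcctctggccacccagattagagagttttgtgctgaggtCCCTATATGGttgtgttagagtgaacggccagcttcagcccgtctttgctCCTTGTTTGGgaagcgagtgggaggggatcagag
The search, which covers both strands because the motif reads alike on each, used the CArG box in its exact form and a form that allows 1 C or G among the 6 A or T bases of its core. The exact form was found in 0 of the 7 member promoters and in 482 of 32851 promoters of the same length (1.47%). The second form, added after the first gave no member, was found in 1 of the 7 and in 2823 promoters (8.59%). Its 2 matches in Acta2, CCCTATATGG from 84 to 75 bases and CCTTGTTTGG from 34 to 25 bases before the start, do not overlap. A match is a description of letters in this window and says nothing of binding.

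Levels are given as log2 of the processed signal relative to the 75th percentile of that array, so that 0 is the 75th percentile and a step of 1 is a doubling. Of the spots on an array, 79.5% to 85.1% in Control and 68.8% to 71.6% in DTG were well above background, and the mean log2 signal of negative-control spots was 2.40 to 3.29 and 4.27 to 4.69 (for each, p = 0.0286 by an exact two-sided permutation test and 0.0381 after adjustment for 4 such measures). The log2 75th percentile itself overlapped, at 11.69 to 12.05 in Control and 11.88 to 12.05 in DTG (exact two-sided permutation p = 0.229). Relative to it, the log2 signal of the spike-in probes was -1.23 to -0.68 in Control and -1.45 to -1.33 in DTG. These ranges did not overlap (exact two-sided permutation p = 0.0286, and 0.0381 after adjustment of this permutation test). All arrays lay on 1 slide, with Control in 1 row and DTG in the other. The row and the group therefore cannot be told apart. The part of these differences in the results below was not tested. Xist, the RNA of the silenced X of females, was high on Control 2 and 4 and on DTG 1, 3 and 4, 5 arrays in all, which goes against the male label, while the Y-linked Eif2s3y was high on the other 3. Msi1 on probe A_55_P2062688 read -5.92 to -1.48 on the Control arrays and 3.85 to 4.16 on the 3 unflagged DTG arrays (exact two-sided permutation p = 0.0286, without adjustment). Its other probe, A_51_P296866, read -3.36 to -2.80 and -3.36 to -3.03 (exact two-sided permutation p = 1). Relative to the 75th percentile, the median log2 fold change of all genes was -0.15, and it was 0.32 when arrays were scaled to the spike-in probes.

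Of the 10 members, Synpo2 was lower in DTG skin on its brightest probe, 0 were higher and 8 did not pass the test. Mylk passed the test with lower values in DTG, but 0 of 4 DTG arrays had it well above background, so that its DTG level is only a bound. A gene was called at a Benjamini-Hochberg adjusted p under 0.05 over 17737 genes, by limma, and 32.4% of all tested genes were called (21.3% lower and 11.1% higher). The share of members called, 20%, did not exceed that over all genes. All 10 members had a probe that passed the filter on dim signals, Mylk through the Control arrays alone. Their median log2 fold change was -0.04, which is 0.10 above the median of all genes. Of the 10 values 8 were below 0, beside 11446 of all 17737 tested genes. The measured values of the groups did not overlap for Mylk and Synpo2, beside 34.6% of all tested genes. With spike-in scaling Acta2, Tagln, Cnn1 and Pdgfrb were called higher and 0 members lower, beside 5993 higher and 487 lower of all tested genes. These counts over all genes also stand beside the spike-in counts of each list below. In the 5 arrays with high Xist, where 2627 of 17685 genes were called, Lmod1 was called lower and Mylk, at -0.61, did not pass (limma adjusted p = 0.112). Synpo2 passed there too, at -0.97 (0.0366), but with 1 Control value, taken to vary as the other arrays do, against 3 DTG values.

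**Figure D1:**
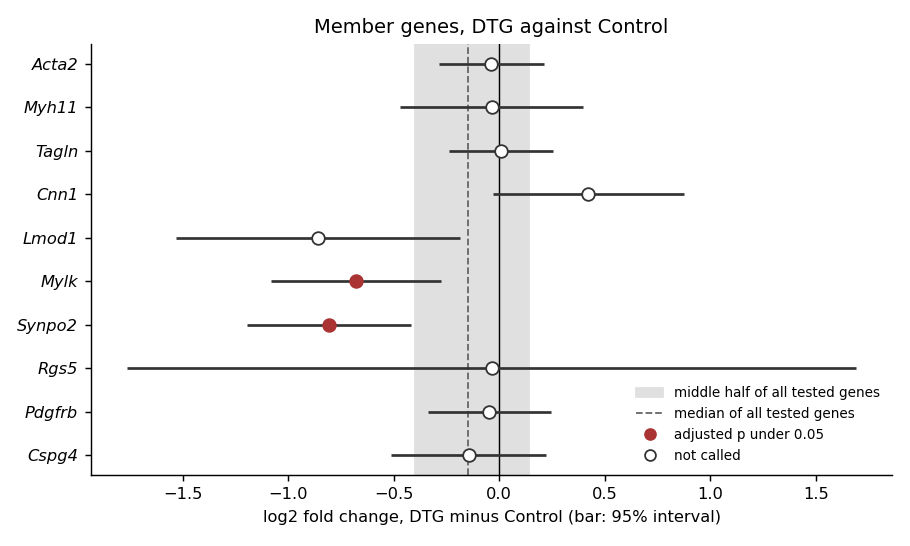
Log2 fold change of each member gene, DTG minus Control, with its 95% interval from limma; filled points are called at an adjusted p under 0.05, the band spans the 25th to the 75th percentile of all tested genes (-0.40 to 0.14) and the dashed line is their median. Mylk and Synpo2 are the filled points, of which Mylk was not well above background on any DTG array, the intervals of Acta2, Tagln and Pdgfrb are narrow around 0, and that of Rgs5 runs from -1.76 to 1.69.

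Acta2, the smooth muscle actin of contractile filaments, read 2.88, 2.73, 2.56 and 2.51 on Control 1 to 4 and 2.66, 2.62, 2.74 and 2.51 on DTG 1 to 4. Every DTG value lay within or at the edge of the Control range. The log2 fold change was -0.04 (SE 0.11, 95% interval -0.29 to 0.21, limma adjusted p = 0.807), which is a fold of 0.97 with an interval from 0.82 to 1.16. Its probe is printed on 10 spots of each array, and the SD among unflagged spots of 1 array was 0.029 to 0.042 on the log2 scale. The SD between arrays, 0.17 in Control and 0.10 in DTG (n = 4 each), was larger than that.

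Tagln, which encodes transgelin, an actin-binding protein of smooth muscle, read 2.99, 2.82, 2.86 and 2.62 in Control and 2.72, 2.86, 2.99 and 2.76 in DTG. The groups overlapped almost fully, at 2.82 ± 0.15 and 2.83 ± 0.12 (SD, n = 4 each). Its log2 fold change was 0.01 (SE 0.11, 95% interval -0.24 to 0.26, limma adjusted p = 0.956). Myh11, the smooth muscle myosin heavy chain and the most restricted marker of differentiated smooth muscle among the members, read -1.30, -0.83, -1.08 and -0.61 in Control and -0.96, -0.65, -1.36 and -0.99 in DTG. The highest value was on Control 4 and the lowest on DTG 3. The change of Myh11 was -0.04 (SE 0.19, 95% interval -0.47 to 0.40, limma adjusted p = 0.900). For these 3 genes the intervals leave room for a change of at most 0.47 on the log2 scale in either direction. With spike-in scaling the change of Acta2 was 0.43 (limma adjusted p = 0.0161), that of Tagln 0.48 (0.0084), and that of Myh11 0.43 without passing.

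Cnn1, which encodes calponin, a protein that binds actin filaments and slows actomyosin, read 1.54, 0.94, 0.81 and 0.94 in Control and 1.11, 1.43, 1.84 and 1.54 in DTG. Control 1 was as high as the DTG arrays and the other 3 Control arrays lay below every DTG array. The log2 fold change was 0.42 (1.34-fold, SE 0.20, 95% interval -0.03 to 0.88) and did not pass (limma adjusted p = 0.135). Without Control 1 it was 0.58 and passed (0.0367), as did the change of 0.89 with spike-in scaling (0.0064). Cnn1 and Tagln were the members with a change above 0.

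Lmod1, which encodes leiomodin 1, a protein that starts actin filaments in smooth muscle, read -2.21, -1.38, -2.60 and -1.66 in Control and -3.42, -2.76, -2.64 and -2.47 in DTG. All DTG arrays were low, and Control 3 lay among them. The change was -0.86 (1.81-fold lower, SE 0.30, 95% interval -1.53 to -0.19) and just missed the threshold (limma adjusted p = 0.0543, unadjusted 0.0183). It passed under 5 of 20 other settings: without Control 3, at -1.07 (adjusted p = 0.0272), with the sex-linked gene class as a covariate, at -0.98 (0.0299), among the high Xist arrays, at -1.32 (0.0480), with normexp background correction, at -0.72 (0.0376), and, unchanged at -0.86, with the filter on all 8 arrays (0.0449). With spike-in scaling it was -0.39 (0.396).

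**Figure D2:**
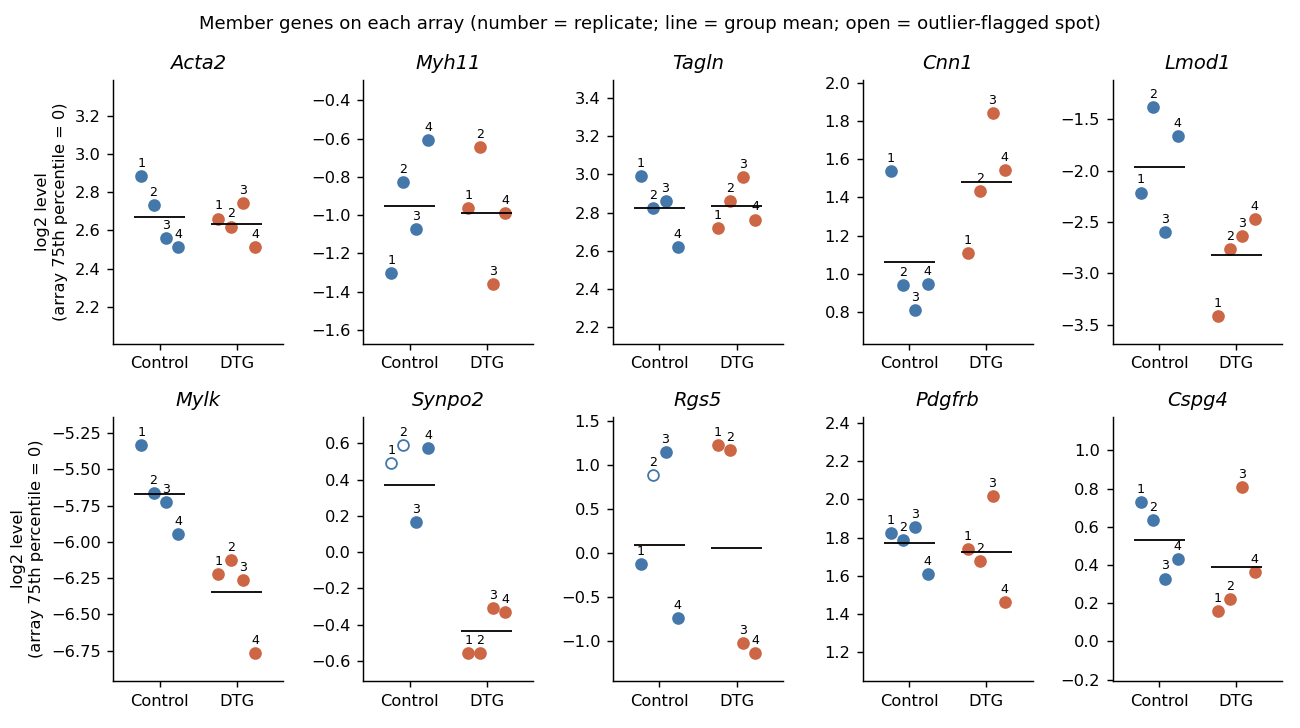
Log2 level of each member gene on every array (0 is the 75th percentile of the array), with Control and DTG side by side, the replicate number at each point, a line at the group mean, and open points for outlier-flagged spots that were left out; each panel has its own scale. The groups are apart in Mylk and Synpo2, nearly so in Lmod1 and Cnn1, and intermixed in Acta2, Myh11, Tagln, Rgs5, Pdgfrb and Cspg4.

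Mylk, the myosin light chain kinase that switches contraction on, was dim in both groups. Its processed signal was 82, 84, 65 and 61 on the Control arrays and 52, 61, 54 and 35 on the DTG arrays, which after scaling gave -5.33, -5.66, -5.73 and -5.94 against -6.22, -6.13, -6.26 and -6.77. After scaling every DTG array read below every Control array, with means of -5.67 and -6.34 (limma adjusted p = 0.0206). The probe was well above background on 4 of 4 Control and 0 of 4 DTG arrays, so the DTG level is only a bound. On the DTG arrays the dimmest signals still well above background averaged -5.40, which was higher than the Control mean of -5.67, and no fold can be given. The difference of the measured means, -0.68, is therefore no estimate of a change in Mylk. With normexp background correction it was 0.04 (adjusted p = 0.804), with quantile scaling -0.43 (0.0554), without scaling -0.55 (0.0756) and with spike-in scaling -0.21 (0.275). The call on Mylk thus depends on how the background and the arrays were treated.

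Synpo2, which encodes synaptopodin 2 (myopodin), an actin-bundling protein of the Z-disc and of smooth muscle dense bodies, gave different answers on its 3 probes. On the brightest, A_55_P2095133, the signal was 4743, 6629, 3889 and 5618 in Control and 2657, 2890, 3345 and 2994 in DTG. Every Control spot was brighter than every DTG spot, but the spots of Control 1 and 2 carried an outlier flag and were left out. Skeletal muscle, which also expresses Synpo2, showed marker sums of 309 to 349 in Control and 256 to 277 in DTG, and its part here was not tested. The remaining levels were 0.17 and 0.57 in Control and -0.55, -0.56, -0.31 and -0.33 in DTG. The change was -0.81 (1.75-fold lower, SE 0.16, 95% interval -1.19 to -0.42, limma adjusted p = 0.0120), from 2 Control and 4 DTG arrays. With the flagged spots kept, at 0.49 and 0.59, it was -0.90 (0.0019). Without Control 4, which left a single Control value taken to vary as the rest do, it was -0.60 and did not pass (0.0544), and without Control 3, which also left 1 Control value, it was -1.01 and passed (0.0163). With spike-in scaling it was -0.46 and did not pass (0.168).

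The second Synpo2 probe, A_52_P223127, was well above background on all arrays and read -5.06, -4.32, -4.67 and -4.59 in Control and -4.52, -4.05, -4.72 and -4.50 in DTG. These groups overlapped, and the change was 0.21 (SE 0.19, 95% interval -0.22 to 0.65, limma adjusted p = 0.416 over 23170 probes, of which 31.4% were called), opposite in sign to the bright probe. The third, A_55_P2159309, was well above background on 2 Control and 0 DTG arrays and was not tested by limma. It read -6.03, -7.08, -6.76 and -6.70 in Control and -6.60, -7.45, -7.55 and -7.70 in DTG, a difference of -0.68 between overlapping groups (exact two-sided permutation p = 0.114, without adjustment). All 3 probes carry the same accession, and which part of the transcript each covers was not analysed here.

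**Figure D3:**
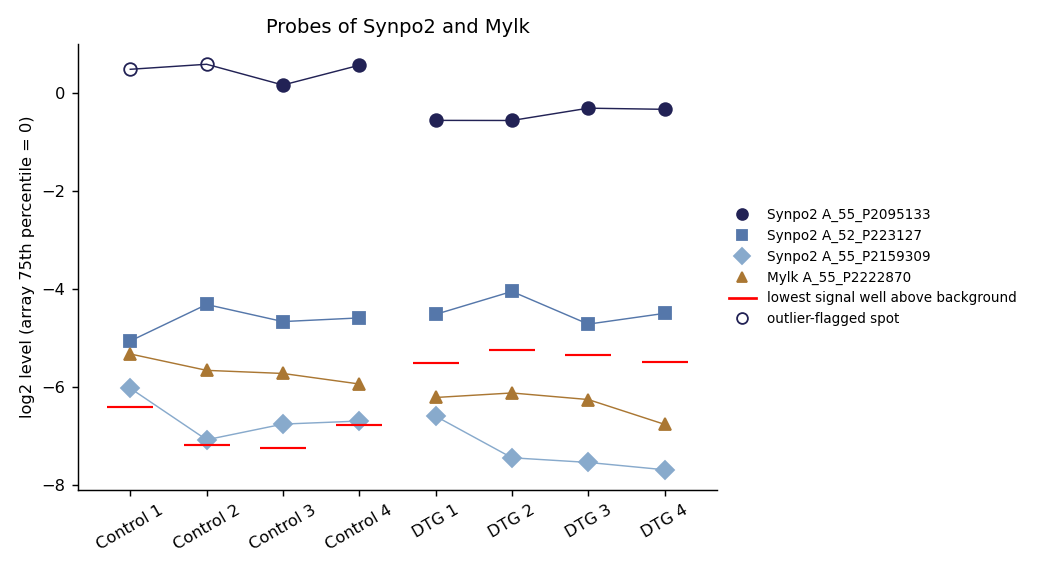
Log2 level (0 is the 75th percentile of the array) of the 3 Synpo2 probes and the Mylk probe on each array, with a red bar at the lowest signal of any probe well above background on that array and open points for outlier-flagged spots. The bright Synpo2 probe steps down from Control to DTG, the middle one stays between -5.06 and -4.05, and Mylk lies above the bars in Control and below them in DTG, where the bars are higher.

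Rgs5, a regulator of G-protein signalling that is widely used as a pericyte marker, varied more within the groups than any other member. It read -0.12, 1.14 and -0.74 on Control 1, 3 and 4, and 1.23, 1.17, -1.03 and -1.14 on DTG 1 to 4. Each group held high and low arrays: signals were 7648 to 9547 on Control 3, DTG 1 and DTG 2 and 1710 to 3030 on Control 1, Control 4, DTG 3 and DTG 4. The outlier-flagged spot of Control 2, at a signal of 8128, lay among the high ones. The change was -0.04 (SE 0.74, limma adjusted p = 0.976), with an interval from -1.76 to 1.69 that covers folds of 0.29 to 3.23. The residual SD of 1.19 was higher than that of 99.4% of tested genes, whose median was 0.20. No difference between the groups was detected, and at this spread the interval leaves room for a large change in either direction.

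Because of this spread the genes next to Rgs5 in the reference order were read too, a step chosen after its values were seen. Rgs4, the next gene and another regulator of G-protein signalling, read 1.45, 0.14, 0.29 and 1.28 in Control and 0.61, -0.04, 1.32 and 1.08 in DTG on probe A_55_P2026738. Rgs4 was low, at -0.04 to 0.61, on the 4 arrays where Rgs5 was high and high, at 1.08 to 1.45, on the 4 arrays where Rgs5 was low, flagged spot included. Its second probe, A_55_P2026734, ran the same way, with -0.11, -1.34, -1.05 and -0.28 in Control and -0.85, -1.47, 0.08 and -0.49 in DTG. Nuf2, on the other side of Rgs5, stayed between -1.53 and -0.83 on its kept probe. These values are a description of 8 arrays, without a test.

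**Figure D4:**
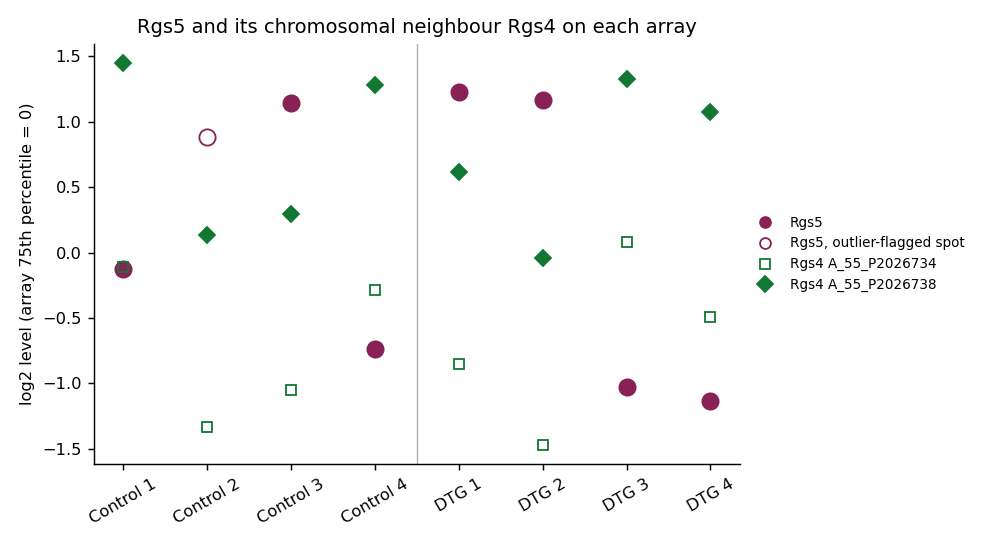
Log2 level (0 is the 75th percentile of the array) of Rgs5 and of both kept Rgs4 probes on each array, with the flagged Rgs5 spot of Control 2 as an open circle. Where the Rgs5 point is high (Control 2 and 3, DTG 1 and 2) both Rgs4 points are low, and where it is low they are high, in both groups.

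Pdgfrb, the PDGF receptor that pericytes need for recruitment, read 1.83, 1.79, 1.86 and 1.61 in Control and 1.74, 1.68, 2.02 and 1.47 in DTG. The highest and the lowest value were both in DTG, on DTG 3 and DTG 4. Its change was -0.05 (SE 0.13, 95% interval -0.34 to 0.25, limma adjusted p = 0.801), or a fold of 0.97 between 0.79 and 1.19. With spike-in scaling Pdgfrb was called higher, at 0.42 (0.0333).

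Cspg4, which encodes the proteoglycan NG2 on the pericyte surface, read 0.73, 0.64, 0.33 and 0.43 in Control and 0.16, 0.22, 0.81 and 0.36 in DTG. DTG 3 was the highest of all arrays, and DTG 1 and DTG 2 were the lowest. The change was -0.14 (SE 0.16, 95% interval -0.51 to 0.22, limma adjusted p = 0.516). On DTG 3 the members Cnn1, Pdgfrb and Cspg4 all had their highest value, while Myh11 had its lowest. DTG 4 gave the lowest value of 4 members, Acta2, Mylk, Rgs5 and Pdgfrb. Among the DTG arrays, Acta2, Tagln, Cnn1, Synpo2, Pdgfrb and Cspg4 were highest on DTG 3, and Lmod1, Mylk and Rgs5 on others. Among the Control arrays, Acta2, Tagln, Cnn1, Mylk and Cspg4 were highest on Control 1, where Myh11 was lowest. Many members thus peaked on the same array within a group, but not all did. Summed over the 8 members with a value on every array, the level was 19.2 to 24.1 times the 75th percentile in Control and 20.1 to 24.6 times in DTG, with overlap.

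The remaining contractile apparatus was read from a list of 36 genes for smooth muscle filaments, their anchors and the myosin phosphatase. Of these, 6 were lower (16.7%, beside 32.4% of all tested genes called), 0 higher and 30 not called. The median change was -0.14, close to that of all genes. With spike-in scaling 10 were higher and 0 lower. The fallen genes were Cnn2, Pgm5, Myl9, Myl6, Tpm1 and Myh10. Cnn2, a calponin found in many cell types, fell by 0.68 (SE 0.09, limma adjusted p = 0.0015), although its dimmer probe A_55_P2010931 read 0.31 without passing. The regulatory myosin light chain Myl9 fell by 0.42 (SE 0.10, 0.0152) and the essential light chain Myl6 by 0.52 (SE 0.12, 0.0161); with spike-in scaling both read 0.05 higher and were not called. Pgm5, which encodes aciculin, a protein of adherens-type junctions in muscle, fell by 0.60 (SE 0.12, 0.0065) and its probe A_65_P17602 was lower too, but its dim probe A_52_P229924 rose by 1.84 (SE 0.11). Without Control 3 the call on Myl6 was lost (0.0570), and 3 genes of the list were called. The summed level of the list, in multiples of the 75th percentile, was 187 to 210 in Control and 174 to 186 in DTG.

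Of 29 tested genes for calcium, cyclic GMP and other signalling in smooth muscle, 8 were lower and 2 higher, with a median of -0.27. The share called, 34.5%, was close to the 32.4% of all tested genes. With spike-in scaling 1 was lower and 6 higher. Itga8, the integrin α8 chain of smooth muscle and other mesenchyme, fell by 0.89 (SE 0.10, limma adjusted p = 0.00062). Gucy1a1, a subunit of the guanylate cyclase through which nitric oxide relaxes vessels, fell by 0.75 (SE 0.14, 0.0051). Itpr2, an IP3-gated calcium release channel, fell by 0.53 (SE 0.10, 0.0059). Atp2a2, the SERCA2 pump that returns calcium to the sarcoplasmic reticulum, rose by 0.55 (SE 0.10, 0.0058), and its change was above 0 under all 5 scalings. The first 3 stayed below 0 under these scalings but were not called with spike-in scaling (0.0718 for Itga8). Ryr2, 1 of the 8 lower genes, was well above background on 0 of 4 DTG arrays, so that its fall is only bounded, at 1.09-fold or more. Kcnmb1 and Chrm3 did not pass the filter on dim signals, and Ryr3 was not among the named probes.

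Among 25 tested genes for serum response factor, its coactivators and other smooth muscle transcription regulators, 4 were higher and 1 lower. The share called was 20%, beside 32.4% of all tested genes, and the median was -0.10. With spike-in scaling 8 were higher and 0 lower. Tead4, a TEAD factor that works with YAP, rose by 0.63 (SE 0.12, limma adjusted p = 0.0049), and Fhl2, a LIM-domain coregulator, by 0.77 (SE 0.22, 0.0279). Mef2d, a MEF2 factor, rose by 0.71 (SE 0.19, 0.0223), while its dimmer probe A_51_P504672 read -0.12 without passing. Mrtfb, a myocardin-related coactivator of serum response factor, fell by 0.39 (SE 0.08, 0.0076), and its dimmer probe A_55_P1967241 read 0.26 without passing, as did the brighter probe at 0.07 with spike-in scaling. Fhl2 lost its call when Control 2, Control 4, DTG 1, DTG 2 or DTG 3 was left out (0.0517 to 0.0664), and Mef2d without Control 2, Control 3, DTG 2 or DTG 4 (0.0517 to 0.0588). The fourth gene that rose was Elk4, at 0.62 (0.0363). Leaving out 1 array at a time moved the number called between 2 (without Control 2 or DTG 2) and 7 (without Control 1). Foxf1 was too dim to be tested.

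In a list of 29 further pericyte genes 7 were lower and 0 higher, with a median of -0.22. The share called was 24.1%, beside 32.4% of all tested genes. With spike-in scaling 2 were lower and 7 higher. Ndufa4l2, a hypoxia-responsive mitochondrial protein typical of pericytes, fell by 2.50 (5.65-fold lower, SE 0.28, limma adjusted p = 0.00055), and Ano1, a calcium-activated chloride channel of smooth muscle and pericytes, by 1.32 (SE 0.12, 0.00022). These 2 are the genes of the list that were also called lower with spike-in scaling, at -2.03 and -0.85. Notch3, the receptor needed for mature mural cells, fell by 0.57 (SE 0.13, 0.0106), and Anpep, the aminopeptidase CD13, by 0.56 (SE 0.15, 0.0225), a call that was lost without DTG 1 (0.0554) or DTG 2 (0.0602). The other 3 were Angpt1, Postn and Pth1r. The summed level of the list was 109 to 130 in Control and 88.8 to 99.7 in DTG, without overlap, and leaving out 1 array gave 4 (without DTG 2) to 9 calls. Bright genes weigh most in this sum. The brightest were Mcam, Cd248, Postn and Ephx3, with Control means of 5.21, 3.71, 3.69 and 3.64. How far the sum reflects pericytes was not tested.

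Of 23 PDGF ligands, receptors and adaptors below them, 3 were lower (13%, beside 32.4% of all tested genes called) and 0 higher. The median was -0.07. With spike-in scaling 1 was lower and 8 higher. Sos1, the exchange factor that activates Ras, fell by 1.17 (SE 0.12, limma adjusted p = 0.00047). It was dim, with a DTG mean of -4.97, and well above background on 3 of 4 DTG arrays. The ligand Pdgfa fell by 0.63 (SE 0.10, 0.0027), and its second probe A_55_P2007470 by 0.73. Plcg1, a phospholipase C recruited to the receptor, fell by 0.62 (SE 0.15, 0.0143), with 0.38 and no call on its dim probe A_55_P2015860. Pdgfrl, a receptor-like protein, read -0.80 (SE 0.31) and did not pass (0.0799), but did without DTG 2 (0.0320). Among the high Xist arrays alone 2 contractile, 6 signalling, 3 transcription, 3 pericyte and 2 PDGF genes were called. Of all genes tested in these arrays, 2627 of 17685 were called.

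Markers of the other cells in skin had medians from -0.44 to -0.08, and from 0.02 to 0.39 with spike-in scaling. Of all tested genes, 3778 were lower, against 3298 with quantile, 1597 with no and 487 with spike-in scaling. Beside the 32.4% of all genes called, 4 of 18 endothelial markers were lower and 1 higher (median -0.08), against 0 lower and 3 higher with spike-in scaling: Cldn5, a tight junction protein, fell by 0.72 and Vwf by 0.45, while the receptor Tie1 rose by 1.09 (limma adjusted p = 0.0057). The summed endothelial level was 35.2 to 41.7 in Control and 28.9 to 35.3 in DTG. Among 20 skeletal muscle markers, which report the panniculus carnosus under the skin, 5 were lower (median -0.24), but 0 were called with quantile, no or spike-in scaling, with Tnni2 at -0.40, Tnnt3 at -0.34 and Mb at -0.40. The summed levels were 309 to 349 and 256 to 277. Dermal fibroblast markers were lower for 6 of 15 (median -0.31), but for 1 with quantile and 0 with no scaling, and 4 were higher and 0 lower with spike-in scaling. Their sums were 184 to 241 and 161 to 180, with Dpp4 at -0.41, Fn1 at -0.39 and Dpt at -0.37. Vwf, Tnni2, Tnnt3, Mb, Dpp4, Fn1 and Dpt read 0.02 to 0.12 above 0 with spike-in scaling.

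Adipocyte markers were lower for 8 of 12 (median -0.31), but for 3 with quantile and 2 with no scaling, and 1 was lower and 1 higher with spike-in scaling. Their sums were 105 to 113 and 85.2 to 88.1, with the lipid-droplet protein Plin1 at -1.35, Retn at -0.59 and Adipoq at -0.46, the last of which read 0.12 with spike-in scaling. Schwann cell markers were lower for 5 of 10 (median -0.44), but for 4 with quantile and 0 with no scaling, and 2 were higher and 0 lower with spike-in scaling. Their sums were 21.4 to 25.8 and 18.3 to 20.3, with Prx at -0.70 and S100b at -0.60. Keratinocyte markers were lower for 6 of 11 (median -0.44), but for 3 with quantile and 3 with no scaling, and 1 was higher and 0 lower with spike-in scaling. Their sums were 147 to 190 and 118 to 142, with Krt1 at -0.72, Col17a1 at -0.61 and Krt5 at -0.59, although a second Krt5 probe, A_66_P116076, read 0.12 without passing. Leaving out 1 array lost the calls on Dpt (6 of 8 arrays), Fn1 (5 of 8), Mb (4 of 8), Tnnt3 and Krt1 (2 of 8 each) and Adipoq (without Control 2), with adjusted p up to 0.0809. The sums of all 6 lists except the endothelial one did not overlap between groups, whereas the sums of the members did. Of the related lists, the contractile, signalling and pericyte sums did not overlap either, while the transcription and PDGF sums did. The contractile sums nearly met, at 186.7 for the lowest Control and 186.2 for the highest DTG array. All sums take only genes with a value on every array, 32 for the contractile list, without Myl6 and Tpm1. The member sum covers 8 genes, without Synpo2 and Rgs5, and its brightest genes, Tagln and Acta2, weigh most in it. Sums were formed under the reported scaling alone. Whether the members were spared a shift seen in other cells was not tested. The part of the marker shifts in the changes of Mylk, Synpo2 and the listed genes was not tested.

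**Figure D5:**
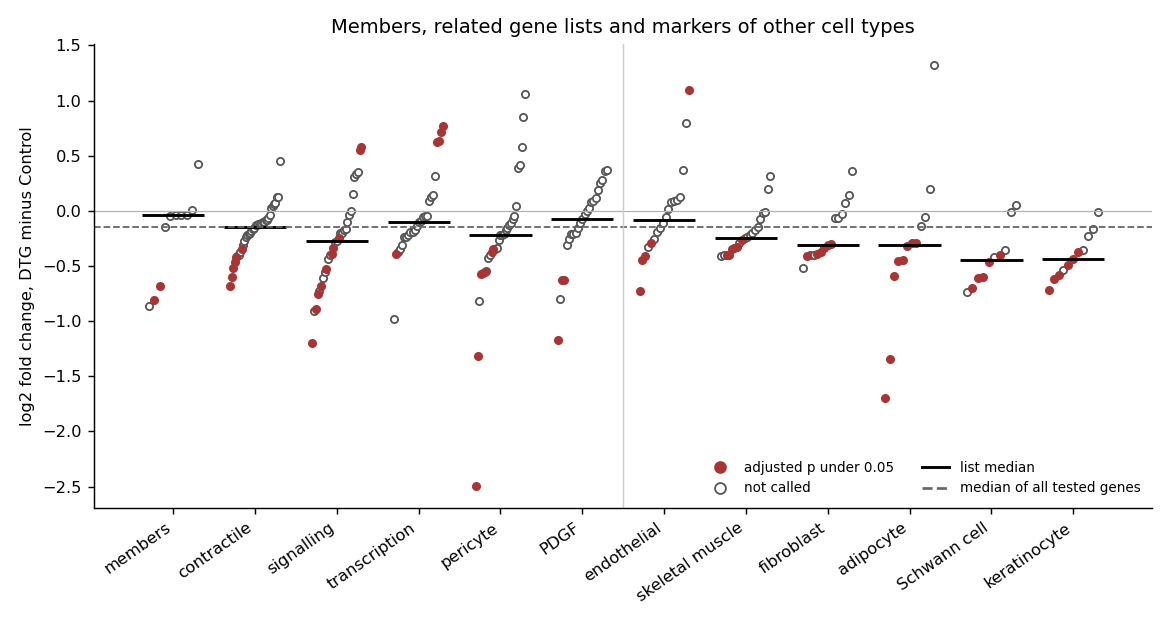
Log2 fold change (DTG minus Control) of each tested gene in the members, in 5 related gene lists and, right of the grey line, in markers of 6 other cell types, with filled points for genes called at an adjusted p under 0.05, a bar at the list median and a dashed line at the median of all tested genes. The members' median of -0.04 lies above the dashed line at -0.15, and the Schwann cell and keratinocyte medians of -0.44 lie below it.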

How the data were processed

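The deposited scanner tables hold an intensity per spot, linear and background-corrected by Agilent Feature Extraction (11.5.1.1 per the file headers, 10.7 per the submitters' processing notes). Other columns deposited by the authors mark outlier spots and signals well above background. Groups come from the tissue label, and replicates were numbered in deposit order, so the numbers pair nothing. Accessions were named through a RefSeq table (GRCm38.p6; 48.1% of 55681 probes named).

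The log2 intensities were scaled by subtracting the 75th percentile of the non-control probes of the array. Spots with an outlier flag were dropped (0.55% of probe values) and the spots of a probe were averaged. A probe was used if 3 or more of the 4 arrays of a group had it well above background, and the brightest kept probe stood for a gene. DTG and Control were compared with limma 3.58.1 in R 4.3.3 (data.table, version 1.17.8), two-sided, with Benjamini-Hochberg adjustment over 17737 genes, or over 23170 probes where single probes are given. With 4 arrays against 4 the smallest exact permutation p is 0.0286. Precision is limited by the number of arrays, and the median SE of a log2 fold change was 0.14. The script was checked on simulated data.

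Alternatives were quantile, median, no and spike-in scaling, normexp (offset 50, on the median signal, since a mean column was assumed but not held), 2 other filters on dim probes, the average of probes, flagged spots kept, the authors' deposited value table (intensity, 10 of the 12 member probes), the sex-linked gene class as a covariate, the high Xist arrays alone, and each array left out. Named in the text are all members and probes, then the 4 genes of each related list and the 3 of each marker list with the smallest p; 1 of these is not reported here, and a few others are named to complete a count of calls. The members and the lists, written from textbook knowledge, were chosen with earlier results of these data known.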

Additional observations from a re-analysis of the deposited data

How the results depend on the processing

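No paired analysis was possible because the labels give no replicate numbers. The number of called members was 2 by the reported setting. It was 1 with quantile scaling, no scaling, the average of probes, the filter on all 8 arrays and the authors' deposited value table. With the sex-linked gene class as a covariate it was 3 (Lmod1, Mylk and Synpo2, all lower), and with spike-in scaling 4. Of the member probes, 1 was called with quantile scaling, the filter on all 8 arrays, the value table or the high Xist arrays alone. Without scaling 0 were called, with the covariate 3 and with spike-in scaling 4. Genes called numbered 3830 without scaling and 2627 among the high Xist arrays, and calls in the 5 related lists 19 and 16, against 31. Leaving out 1 array gave 4072 to 5167 genes, 1 to 3 members (1 without Control 4, 3 without Control 1 or Control 3), 1 to 3 member probes and 21 to 34 list genes. The higher share of all calls was 34.4%, and 41% with quantile, 58.3% with no and 92.5% with spike-in scaling. Changes that turned direction were Acta2 0.030 and Pdgfrb 0.017 (quantile), Tagln -0.022 (median scaling), Acta2 0.085, Myh11 0.088, Rgs5 0.16 and Pdgfrb 0.077 (no scaling), Acta2 0.43, Myh11 0.43, Rgs5 0.43, Pdgfrb 0.42 and Cspg4 0.32 (spike-in), Mylk 0.040 (normexp), Rgs5 0.53 (covariate), and Acta2 0.016, Rgs5 0.43 and Pdgfrb 0.042 (high Xist arrays). Synpo2 read 0.21 with the filter on all 8 arrays and 0.24 with the value table, where the dim probe stands in for the bright one, and 0.97 with the average of probes, where Control 1 and 2 keep only the dim probe A_52_P223127. The filter on all 8 arrays dropped Mylk and Rgs5, and the 1 member called under it was Lmod1; with normexp the 2 were Lmod1 and Synpo2. Leaving out 1 array gave -0.092 to 0.033 for Acta2, -0.15 to 0.088 for Myh11, -0.059 to 0.065 for Tagln, 0.30 to 0.58 for Cnn1, -1.07 to -0.66 for Lmod1, -0.77 to -0.54 for Mylk (called each time), -1.01 to -0.60 for Synpo2 (both ends with 1 Control value), -0.45 to 0.49 for Rgs5, -0.14 to 0.040 for Pdgfrb and -0.28 to -0.07 for Cspg4. Median and spike-in scaling subtract another single value from each array, and no scaling subtracts none. Under each of these, every gene with values on all 8 arrays therefore moves by the same amount. With spike-in scaling Acta2 moved from -0.04 to 0.43, Tagln from 0.01 to 0.48 and Pdgfrb from -0.05 to 0.42. The causes of the other shifts were not tested except where the setting's construction is named. Among the members, signal over background limits Mylk and the dimmest Synpo2 probe, and among the signalling genes called lower it limits Ryr2.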
